A study of Equus caballus with 6 samples.

Results

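The genes described here make, fold and export procollagen. These 43 genes were chosen by name from textbook knowledge of procollagen modification, folding in the endoplasmic reticulum (ER) and vesicle transport. No threshold on their values was used, but earlier results of these data were known when they were chosen. Probes whose description named 1 of them by symbol, full name or older symbol were found for 41 of the 43, with 72 probes in all, out of 13608 named genes and 43603 probes on the array. CREB3L1 and SEC31A had no such probe and are not analysed here. Of the 41 genes, 28 had 1 probe and 13 had several.

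Fibrillar collagens are made as procollagen chains that enter the ER through the SEC61 channel. Prolyl and lysyl hydroxylases modify the chains, and protein disulfide isomerases, lectin chaperones, prolyl isomerases and the collagen chaperone HSP47 (SERPINH1) help 3 chains to join and fold into a triple helix. The folded trimer, too long for an ordinary vesicle, leaves the ER through COPII coats with the help of the receptor TANGO1 (MIA3), while COPI coats return escaped ER proteins. Cartilage cells carry a heavy collagen load, mainly of type II collagen.

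The data are 6 single-colour arrays of horse tissue, 1 per region, each from cells cut out of cresyl violet stained sections by laser capture microdissection. Of the fetal hindlimb at day 40 of gestation, 3 regions were taken: the intermediate interzone, the outer interzone that flanks it, which together mark the site of a coming joint, and transient embryonic cartilage, a template that bone later replaces. Of adult articular cartilage, aged 15 years, 3 depths were taken: the superficial layer (outer 10% of the depth), the middle layer (20 to 30%) and the deep layer (50 to 90%). The labels name no treatment, strain or allele, and the sources used here do not give whether regions share an animal. No region had a replicate, so a difference between 2 regions has no replicate check and describes those arrays only. RNA was amplified by PCR before labelling. In such samples, fewer cells of a type and less RNA per cell cannot be told apart. The fetal arrays lay on 1 slide and the adult arrays on another, so slide and age cannot be told apart.

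Levels are log2 signals relative to each array's reference, the 75th percentile over 1765 probes well above background on all 6 arrays, so that 0 is the reference. A difference is given in log2 units or as a fold, with the scanner's spot error, which leaves out variation between animals and dissections. Where a gene was well above background in 1 region and on no probe in the other, the fold is a lower bound ("at least"). Probes well above background made up 36.9% to 44.6% of all probes on the fetal arrays, 26.4% on the superficial, 8.39% on the middle and 10.8% on the deep array. Of 14 chondrocyte markers, 9, 12 and 14 were well above background in the intermediate interzone, outer interzone and transient cartilage, and 4 on each adult array; COL2A1, the main cartilage collagen, was not well above background on any adult array, while SOX9, ACAN and COMP were above it on all 3. Of 8 joint interzone markers, 7, 7 and 5 were above background on the fetal arrays. None of 5 endothelial markers was above background on any array, and blood markers numbered 0 to 2 of 4, skeletal muscle 2 to 4 of 7, macrophage 2 or 3 of 4 and epithelium 0 to 2 of 5 (KRT17 and EPCAM in the outer interzone). On a linear scale with the reference at 1, summed levels of these lists ran from 0.0388 (superficial) to 0.608 (intermediate interzone) for muscle, from 0.00545 (superficial) to 0.202 (intermediate interzone) for blood, from 0.0226 (superficial) to 0.231 (middle) for macrophages and from 0.0038 (transient cartilage) to 0.248 (outer interzone) for epithelium. The summed level of 7 fibroblast and tendon markers, which include COL1A1 and COL3A1, was 42.4 and 30.0 in the interzone layers, 7.48 in transient cartilage and 0.171 to 2.25 in the adult layers. The part of other cells in the values below was not tested.

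Each gene was read by probes of 60 bases. Those of 8 genes on which the results turn are given 5′ to 3′ on the strand of the transcript, so that each value can be tied to the stretch of mRNA it comes from.
P4HA2: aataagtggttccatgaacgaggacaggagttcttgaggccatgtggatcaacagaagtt
P4HA3: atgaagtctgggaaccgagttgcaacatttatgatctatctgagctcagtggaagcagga
PLOD3: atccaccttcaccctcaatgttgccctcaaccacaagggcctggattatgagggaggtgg
P3H2: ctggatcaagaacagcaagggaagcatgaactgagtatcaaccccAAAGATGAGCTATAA
SERPINH1: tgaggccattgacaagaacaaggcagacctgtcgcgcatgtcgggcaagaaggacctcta
PDIA4: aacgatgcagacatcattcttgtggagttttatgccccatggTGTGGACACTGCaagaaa
MIA3: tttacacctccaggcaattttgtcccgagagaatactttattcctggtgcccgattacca
TMED2: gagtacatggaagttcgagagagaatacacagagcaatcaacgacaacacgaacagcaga
Capitals in the PDIA4 probe mark a run that fits the 4 codons of a thioredoxin-type active site, searched with any base at the last position of each codon. This site is the part of a disulfide isomerase that exchanges disulfide bonds. On either strand such a run occurred in 145 of the 43603 probes (0.333%). The letters alone also match at the start of the SERPINH1 probe, in a run not marked here since its first and last triplets are stop codons. Capitals in the P3H2 probe mark a run that fits the codons of the signal by which proteins are returned to the ER, again with any base at the last position, followed by the stop codon TAA. Such a run occurred in 2 probes of the array (0.00459%). A match is a description of the letters only. All probes of the 41 genes had a GC content of 35.0% to 55.0%.

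In what follows, detected means well above background by the scanner's flag. Most of these genes were detected in the fetal regions and the adult superficial layer, and few in the deeper adult layers. In transient cartilage 39 of 41 (95.1%) were well above background, against 45.4% of all named genes. The intermediate interzone had 35 (85.4%, all genes 37.5%), the outer interzone 34 (82.9%, all genes 43.4%) and the superficial layer 29 (70.7%, all genes 28.6%). The deep layer had 8 (19.5%, all genes 12.1%) and the middle layer 4 (9.76%, all genes 9.44%). All 41 were above background on at least 1 array, and 3 (P4HA2, MIA3 and COPA) on all 6. The 4 detected in the middle layer were these 3 and PDIA3. The 8 in the deep layer were these 3, PLOD2, P3H2, PPIB, SERPINH1 and SEC13.

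**Figure D1:**
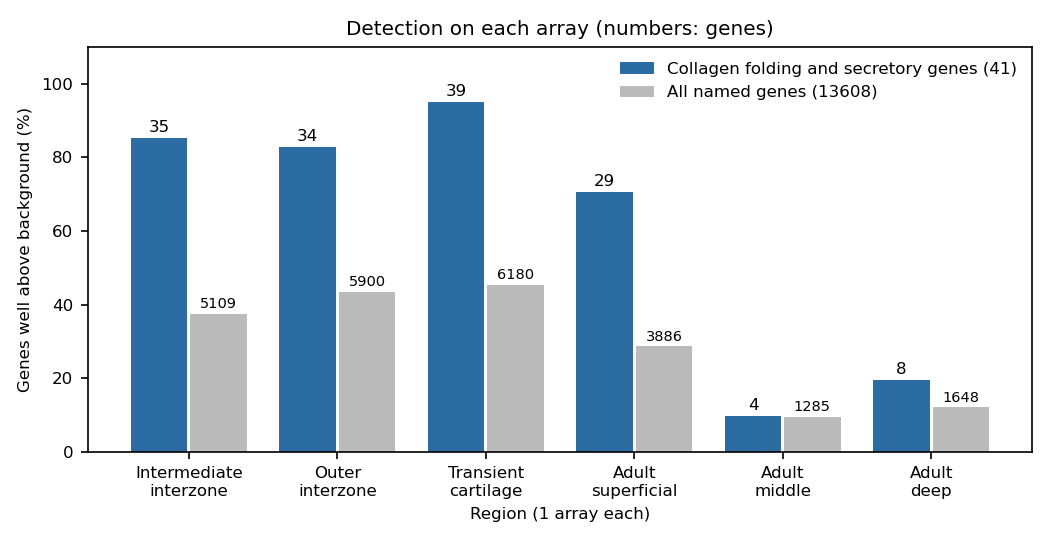
Share of genes well above background (%) on each array, for the 41 collagen folding and secretory genes and for all 13608 named genes; numbers over the bars count genes. The 41 genes stood at 70.7% to 95.1% on the fetal and superficial arrays and at 9.76% and 19.5% on the middle and deep arrays.

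Prolyl 4-hydroxylase, whose product hydroxyproline stabilises the triple helix, is built of 1 of 3 alpha subunits and the beta subunit P4HB. P4HA1 had like levels in the fetal regions, of -2.42 (intermediate interzone), -2.96 (outer interzone) and -2.74 (transient cartilage), the order kept for fetal values from here on, and was not well above background in any adult layer. P4HA2 was detected everywhere, at -2.31, -4.23 and -1.74 in these fetal regions and at -3.51, -4.66 and -5.50 in the superficial, middle and deep layers. The fetal and adult ranges of P4HA2 overlapped, since the outer interzone lay below the superficial layer. P4HA3 was detected in transient cartilage, at -0.72, and in the superficial layer, at -6.06, and in neither interzone layer. It was at least 158-fold lower in the intermediate and at least 298-fold lower in the outer interzone than in transient cartilage, the largest bounds among the fetal comparisons. P4HB, which is also a general disulfide isomerase, was at -3.56, -4.70 and -4.18 in the fetal regions and at -5.30 in the superficial layer.

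The lysyl hydroxylases PLOD1 to PLOD3 modify lysines that later carry cross-links and sugars. PLOD1 was at -1.54, -0.74 and -1.02 in the fetal regions and not well above background in the adult. PLOD2, the enzyme that acts on the collagen ends, was at -0.76, -1.84 and -2.29 in the fetal regions, -0.80 in the superficial and 0.01 in the deep layer. Its probes disagreed: the probe farthest along the transcript read -0.99 in transient cartilage, -3.13 in the superficial layer and not well above background in the deep layer, so that the mean over probes for superficial against transient cartilage was 0.14 log2 units, against 1.49 for the reported probe. PLOD3, which also adds sugars to hydroxylysine, was at -4.30 in the intermediate interzone, -5.31 in transient cartilage and -1.94 in the superficial layer, and was not well above background in the outer interzone. It was highest in the superficial layer, 10.3-fold above transient cartilage.

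P3H1 and CRTAP form, with cyclophilin B (PPIB), the prolyl 3-hydroxylation complex, and P3H2 is a related 3-hydroxylase. P3H1 was at -5.22, -7.87 and -6.41 in the fetal regions and at -6.73 in the superficial layer; its 5 probes are shifted by 1 base each and share nearly all their sequence. P3H2 was at -2.15, -4.82 and -3.34 in the fetal regions, not well above background in the superficial and middle layers, and at 0.77 in the deep layer. Both were therefore highest in the intermediate and lowest in the outer interzone among the fetal regions. CRTAP was at -1.13, -0.81 and 0.49 in the fetal regions and at -3.68 in the superficial layer, where its other probe was not well above background. COLGALT1, a collagen galactosyltransferase, was detected only in transient cartilage, at -8.81, close to the detection limit.

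Of the collagen chaperones, PPIB was at -0.41, -1.04 and -0.06 in the fetal regions, -1.19 in the superficial and 1.16 in the deep layer. SERPINH1 was at -0.41, -2.04 and -0.18 in the fetal regions, not well above background in the superficial and middle layers, and at -6.59 in the deep layer. Its middle-layer signal, -6.10, lay just under the lowest signal well above background on that array (-6.01). On the deep array that lowest signal was -6.86, so the calls do not show SERPINH1 to be higher in the deep than in the middle layer. FKBP10 and FKBP14 are ER prolyl isomerases that bind procollagen. FKBP10 was at -4.56, -3.46 and -2.25 in the fetal regions, and FKBP14 at -6.60, -6.42 and -1.56. Neither was detected in the adult layers. FKBP14 was thus far lower in both interzone layers than in transient cartilage, on each of its 2 probes.

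By their reported probes, general folding factors of the ER were more even across the fetal regions. PDIA3, the isomerase that works with calnexin and calreticulin on glycoproteins, was at 0.22, 0.09 and 0.52 in the fetal regions, 0.21 in the superficial and -0.87 in the middle layer. CALR (calreticulin) was at -2.80, -2.69 and -2.83, and at -4.28 in the superficial layer. CANX (calnexin) was at -3.82, -4.23 and -4.19, and at -2.76 in the superficial layer. The lectin chaperones therefore went opposite ways from transient cartilage to the superficial layer at the reference scaling, CALR 2.73-fold lower and CANX 2.70-fold higher. PDIA6 was at -4.88, -5.76 and -4.77, and at -6.09 in the superficial layer. PDIA4 was at -2.19, -1.78 and -1.33, and at 0.48 in the superficial layer. In the intermediate interzone 3 of its 6 probes were not well above background. Those 3 read -6.27, -4.51 and -3.79 in the outer interzone and -7.09, -6.70 and -2.28 in transient cartilage. The evenness of PDIA4 therefore does not hold for all its probes.

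Among the transcription factors that raise secretory capacity, XBP1, the splicing-activated factor of the unfolded protein response, was highest in the superficial layer. It stood at -6.59 (outer interzone), -4.80 in transient cartilage and -1.52 in the superficial layer, and was not well above background in the intermediate interzone. Its other probe read -4.99 for the outer interzone and -5.05 for transient cartilage, so the probes disagreed between these 2 regions. ATF6, an ER membrane-bound sensor, was detected in the outer interzone at -4.13 and in the superficial layer at -3.51, and in neither transient cartilage nor the intermediate interzone. CREB3L2, a factor known to be needed for cartilage secretion, was detected only in transient cartilage, at -8.29. That is near the lowest signal well above background on that array (-8.84). It lies below the lowest such signal on the intermediate interzone (-8.02), superficial (-8.28), middle (-6.01) and deep (-6.86) arrays. No difference of CREB3L2 from those regions is therefore shown.

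The SEC61 channel has 3 subunits. SEC61A1, which forms the pore, was detected in transient cartilage (-7.20) and the superficial layer (-7.08) and in neither interzone layer. SEC61B was at -5.13, -5.06 and -3.35 in the fetal regions and at -2.73 in the superficial layer. SEC61G was at -6.40, -2.81 and -1.78 in the fetal regions and at -1.93 in the superficial layer. For all 3 subunits both interzone layers were below transient cartilage or below detection.

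COPII export proceeds through SAR1 GTPases, an inner coat of SEC23 and SEC24, and an outer coat that contains SEC13. SEC23A was at -1.94, -1.34 and -1.81 in the fetal regions and at -3.32 in the superficial layer. SEC23B was at -2.84, -2.81 and -2.73, and at -0.75 in the superficial layer. The paralogs thus differed little among the fetal regions, and in the superficial layer SEC23A was 2.86-fold lower and SEC23B 3.94-fold higher than in transient cartilage. SEC24D, the cargo-binding subunit linked to procollagen export, was at -4.23, -4.61 and -2.45, and at -1.93 in the superficial layer. SEC13 was at -2.19, -3.94 and -1.0, at -4.97 in the superficial and at -6.78 in the deep layer. SAR1A was at -5.46, -5.92 and -4.37, and SAR1B at -7.30, -5.00 and -5.32, both with no adult signal well above background. MIA3 was at -4.67, -2.21 and -2.18 in the fetal regions and at 0.68, -4.51 and -2.45 in the superficial, middle and deep layers. Its highest level was in the superficial layer. Its lowest levels, close together, were in the intermediate interzone and the middle layer.

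COPI subunits and cargo receptors work between ER and Golgi. COPA, with 3 probes, was at -1.29, -0.90 and -0.77 in the fetal regions, -0.41 in the superficial and -6.0 and -5.71 in the middle and deep layers, where its other 2 probes were not well above background. COPB1 was at -3.22, -3.20 and -2.62 in the fetal regions and undetected in the adult. COPB2 was at -2.18, -3.02 and -4.11, and at -7.18 in the superficial layer. The beta-prime subunit COPB2 was therefore higher in both interzone layers than in transient cartilage, unlike COPB1. LMAN1, a lectin receptor for glycoproteins, was at -6.85 in the intermediate interzone, -6.02 in transient cartilage and -2.79 in the superficial layer. TMED2 and TMED10 are partners in p24 cargo receptors. TMED2 was at -2.42, -1.44 and -1.15, and at 1.13 in the superficial layer. TMED10 was at -6.82, -4.33 and -2.18, and at -2.69 in the superficial layer. By these probes both were lowest in the intermediate interzone. The other probe of TMED2 read -2.69, -2.96 and -2.22, lowest in the outer interzone. Among the fetal regions transient cartilage was highest by each probe.

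Procollagen processing outside the cell was represented by BMP1, the C-proteinase, and PCOLCE, its enhancer. BMP1 was detected only in the intermediate interzone, at -6.24. PCOLCE was at -4.33, -6.28 and -7.60 in the fetal regions and at -7.10 in the superficial layer. Both had their highest fetal signal in the intermediate interzone.

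**Figure D2:**
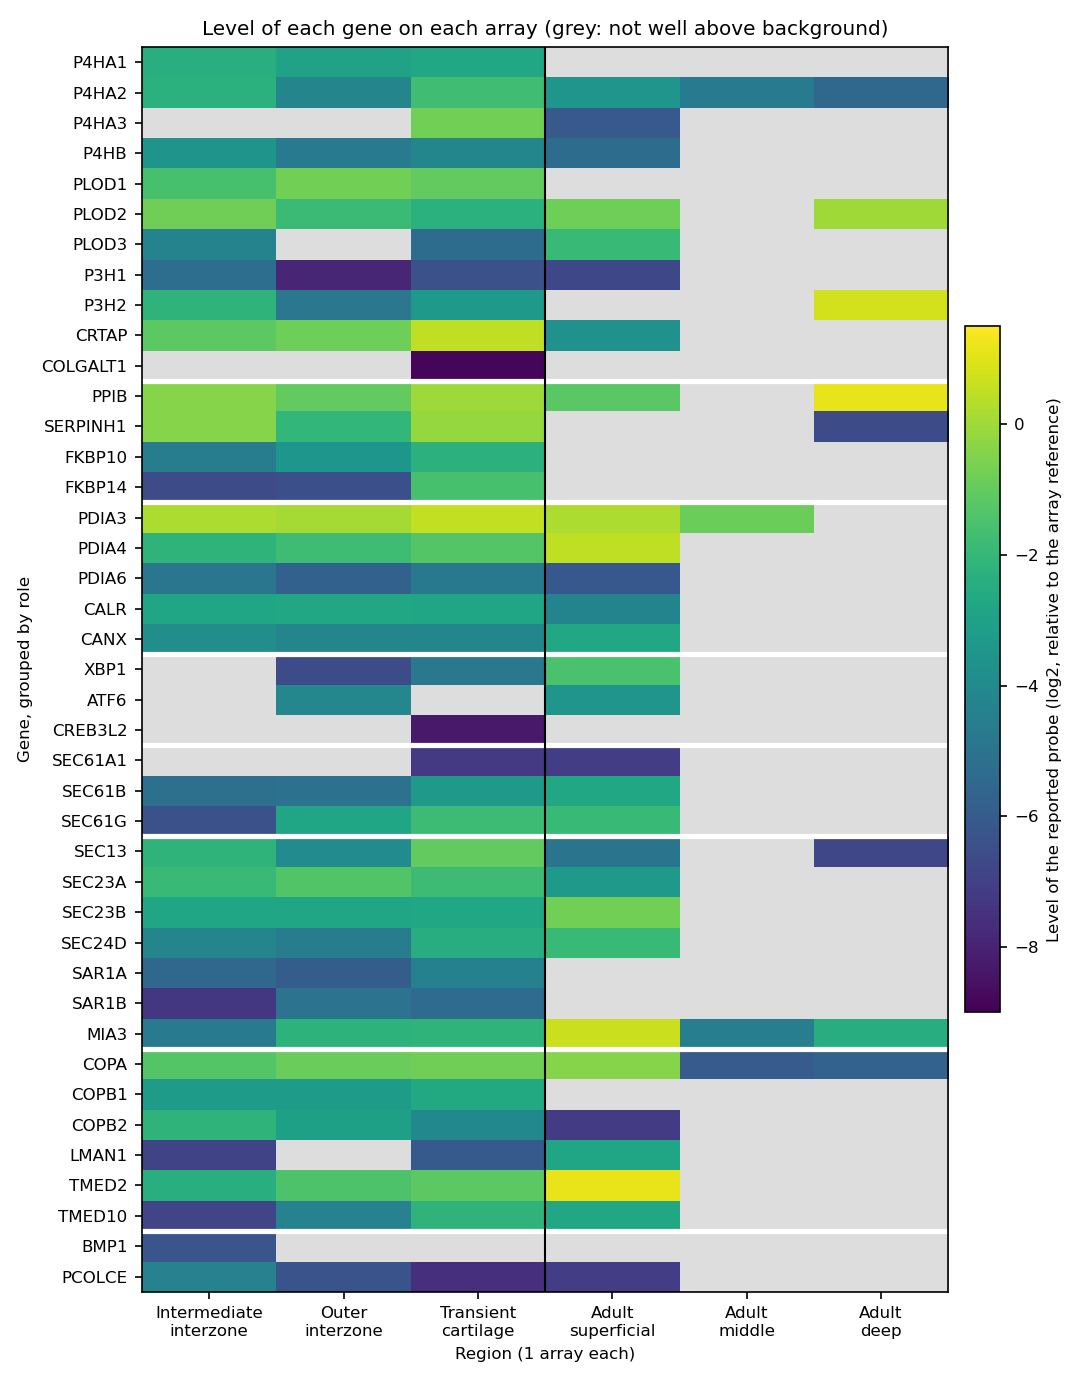
Level of the reported probe of each of the 41 genes (rows, grouped by role, white lines between roles) on each of the 6 arrays (columns), as log2 relative to the array reference on the colour scale; grey cells were not well above background. The middle column holds 4 coloured cells and the deep column 8, and FKBP14, P4HA3 and CRTAP are brightest in transient cartilage, whereas MIA3, TMED2 and PDIA4 are brightest in the superficial layer.

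The comparison of the intermediate interzone with transient cartilage sets the site of the joint beside a template of bone. In the intermediate interzone SEC61B and SEC61G of the ER channel, 5 COPII genes and the isomerases FKBP10 and FKBP14 were at least 2-fold lower, whereas SEC23A (-0.13), SEC23B (-0.11) and PPIB (-0.35) lay within 2-fold. FKBP14 was 33.0-fold lower (-5.04 log2 units, spot error 0.232), TMED10 24.9-fold, SEC61G 24.5-fold, MIA3 5.60-fold, FKBP10 4.96-fold and SAR1B 3.96-fold. PCOLCE was 9.62-fold higher (3.27, spot error 0.247), COPB2 3.80-fold, PLOD2 2.89-fold, P3H1 and P3H2 2.28-fold each and PLOD3 2.01-fold. After normexp correction the difference of PCOLCE was 1.84 log2 units. The mean over the 3 probes of PLOD2 was 0.75, under 2-fold. BMP1 was at least 6.03-fold higher, XBP1 at least 9.31-fold lower and SEC61A1 at least 1.77-fold lower.

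Of 34 members measured on both arrays, 12 were at least 2-fold lower, against 17.9% of all genes measured, and 6 at least 2-fold higher, against 32.4%. The other 16 lay within 2-fold. The members' median was -0.52, against 0.36 for all 4301 genes. By role, 5 of 7 measured COPII genes were lower and 0 higher, and 2 of 4 chaperones lower and 0 higher. Both measured SEC61 subunits were lower, and of 6 COPI and receptor genes 2 were lower and 1 higher. By their reported probes, 0 of 5 general folding genes passed 2-fold. Of 9 hydroxylation genes, 4 were higher and 1 lower. The median of the COPII genes was -1.18 and that of the hydroxylation genes 0.63. Each kept its sign under all 5 other scalings and corrections, down to -0.02 for COPII after normexp correction and 0.08 for hydroxylation with the 50th percentile. After normexp the hydroxylation median, 0.79, lay below the 0.82 of all genes, and 4 higher of 9 is set beside 32.4% of all genes. SAR1B turned to 0.27 after normexp. With the 50th percentile the counts over all members were 2 higher and 18 lower, and after normexp 6 and 8. The 2 higher with the 50th percentile included PCOLCE (2.72). At most 1 of the 4 higher hydroxylation genes therefore still passed 2-fold upward there. The counts by role are those of the reference scaling. The median SD between probes of a gene was 0.229 (pooled 0.542).

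Differences of the outer interzone are taken from the same transient cartilage array and share its error. The prolyl isomerases FKBP14 and FKBP10, the COPII genes SEC13, SEC24D and SAR1A, and the hydroxylases P4HA2, P3H1 and P3H2 were at least 2-fold lower, whereas MIA3 (-0.03), SEC23A (0.47) and SAR1B (0.32) were not. FKBP14 was 29.1-fold lower (-4.86, spot error 0.210), SEC13 7.66-fold, P4HA2 5.62-fold, SEC24D 4.46-fold, TMED10 4.42-fold and SERPINH1 3.63-fold. PCOLCE was 2.49-fold higher, but -0.03 log2 units after normexp, and COPB2 2.13-fold higher. PLOD3 was at least 12.4-fold, LMAN1 at least 7.55-fold and SEC61A1 at least 3.34-fold lower, and ATF6 at least 26.0-fold higher. Of 33 members measured, 14 were at least 2-fold lower (all genes 20.2%), 2 at least 2-fold higher (all genes 25.0%) and 17 within 2-fold. The median was -0.58 (all 4789 genes 0.08). In the hydroxylation group 4 of 8 were lower and 0 higher (median -0.91, and -1.14 to -0.52 under the other scalings and corrections). Of the chaperones 3 of 4 were lower and 0 higher. Both measured SEC61 subunits were lower, SEC61B 3.27-fold and SEC61G 2.04-fold. Their median was -1.37, and -1.87 to -0.98 under the other scalings and corrections. Of the COPII genes 3 of 7 were lower and 0 higher, with a median of -0.08 that turned to 0.31 with the series table. With quantile normalization 0 members were higher and 15 lower.

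**Figure D3:**
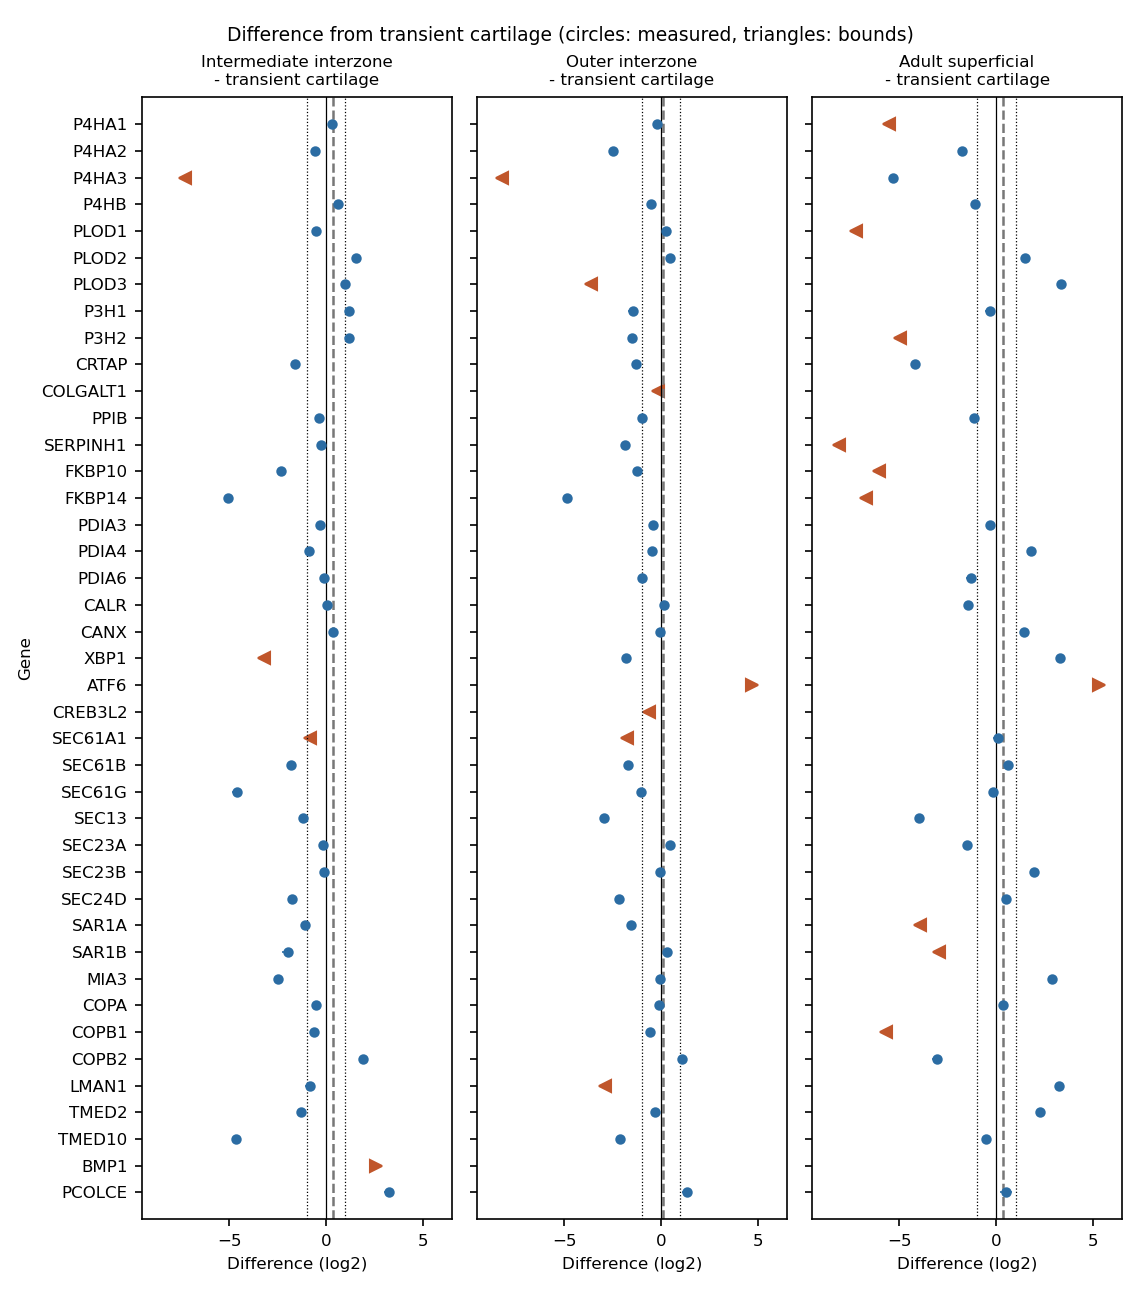
Difference (log2) of each gene from transient cartilage in the intermediate interzone, the outer interzone and the adult superficial layer; circles are measured differences with spot errors, most of them smaller than the symbol, triangles are bounds, the dashed line is the median of all genes measured and dotted lines mark 2-fold. FKBP14, TMED10 and SEC24D lie to the left in both interzone panels, and PLOD3, XBP1, LMAN1 and MIA3 to the right in the superficial panel.

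The 2 interzone layers were also set side by side. P3H1, P3H2, P4HA2, PLOD2 and P4HB passed 2-fold upward in the intermediate layer, whereas P4HA1 (0.54) and PLOD1 (-0.80) lay within 2-fold, and SEC61G, TMED10, MIA3 and SAR1B were lower. P3H2 was 6.37-fold higher (2.67, spot error 0.205), P3H1 6.29-fold, PCOLCE 3.87-fold, P4HA2 3.79-fold, SEC13 3.37-fold and SERPINH1 3.08-fold. SEC61G was 12.0-fold lower (-3.58, spot error 0.229), TMED10 5.62-fold, MIA3 5.49-fold, SAR1B 4.93-fold and FKBP10 2.13-fold. PLOD3 was at least 24.9-fold, BMP1 at least 6.48-fold and LMAN1 at least 4.25-fold higher, and ATF6 at least 14.8-fold and XBP1 at least 2.70-fold lower. Of 32 members measured, 8 were at least 2-fold higher (all genes 25.6%), 5 at least 2-fold lower (all genes 17.7%) and 19 within 2-fold, so neither share was far from that of all genes. The median was 0.06 (all 4266 genes 0.21). Of the 8 hydroxylation genes measured, 5 passed 2-fold upward and 0 downward; PLOD2, 1 of the 5, did not by the mean over its probes (0.75). Their median was 1.11, and 0.77 to 1.43 under the other scalings and corrections. SAR1B turned to 0.28 after normexp correction. The counts of higher and lower members were 6 and 7 with the 50th percentile, 6 and 7 with the series table, and 11 and 2 after normexp.

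The adult superficial layer was set against transient cartilage, the comparison of permanent with temporary cartilage in which most members could be measured. The receptors MIA3, LMAN1 and TMED2, with XBP1 and PLOD3, were higher in the superficial layer, TMED10 (-0.51) lay within 2-fold, and procollagen chaperones and most prolyl hydroxylases were lower or not well above background. PLOD3 was 10.3-fold higher (3.37, spot error 0.206), XBP1 9.71-fold, LMAN1 9.39-fold, MIA3 7.26-fold, TMED2 4.86-fold and SEC23B 3.94-fold. PDIA4 was 3.49-fold higher, with all 6 probes higher, although most of these overlap another in sequence. P4HA3 was 40.4-fold lower (-5.34, spot error 0.214), CRTAP 18.0-fold, SEC13 15.7-fold, COPB2 8.41-fold, P4HA2 3.41-fold and SEC23A 2.86-fold. SERPINH1 was at least 275-fold, PLOD1 at least 154-fold, FKBP14 at least 106-fold and FKBP10 at least 65.5-fold lower, and ATF6 at least 40.1-fold higher. In all, 11 of the 41 members were above background in transient cartilage and on no probe in the superficial layer, and 1 the other way. Among all 13608 named genes these counts were 3130 and 847. The part of lower detection on the superficial array in these bounds was not tested.

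Of 28 members measured, 9 were at least 2-fold higher (all genes 35.9%), 10 at least 2-fold lower (all genes 26.1%) and 9 within 2-fold, and their median was -0.02 (all 3019 genes 0.33). Which side held more members depended on the scaling. The counts were 20 higher and 3 lower with the 75th percentile of all probes, which moved the median of all genes to 2.54, 12 and 5 with the series table, 12 and 8 with quantile normalization, and 7 and 11 with the 50th percentile. P4HA2, P4HB, PPIB, PDIA6, CALR and SEC23A, each lower at the reference scaling, were higher with the 75th percentile of all probes, by 0.44 to 1.09 log2 units. PLOD3, XBP1, LMAN1 and MIA3 were higher, and P4HA3, CRTAP and SEC13 lower, under all 6 alternatives (5 scalings or corrections and the mean over probes). The median of the hydroxylation group was -1.11 over 7 genes, and 1.09 with the 75th percentile of all probes.

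Within the adult, the superficial and deep layers shared 6 measured members. COPA was 39.3-fold higher in the superficial layer (5.30, spot error 0.242), MIA3 8.75-fold, P4HA2 3.98-fold and SEC13 3.51-fold, and PPIB was 5.11-fold lower. The counts were thus 4 higher (all genes 17.7%) and 1 lower (all genes 45.1%), and the members' median was 1.90 (all 1245 genes -0.83). P4HA2 and SEC13 turned to -0.89 and -1.01 with quantile normalization, and SEC13 to -0.29 after normexp, when the counts were 2 and 2, and 2 and 1. COPA, MIA3 and PPIB kept their direction under the 6 alternatives. The deep value of COPA rests on 1 of its 3 probes, since the other 2 were not well above background there. A further 23 of the 41 members were above background in the superficial layer only. The largest bounds were TMED2 at least 256-fold, PDIA4 at least 162-fold, PDIA3 at least 135-fold and SEC23B at least 69.2-fold. In the other direction P3H2 was at least 530-fold and SERPINH1 at least 3.22-fold lower in the superficial layer. On these arrays 2612 of all 13608 named genes were above background in the superficial layer only and 396 in the deep layer only. The part of this lower detection in the bounds was not tested.

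Adult and fetal regions were compared by their means over 3 regions each. Only P4HA2, MIA3 and COPA could be measured, with 0 at least 2-fold higher (all genes 38.8%) and 2 at least 2-fold lower in the adult (all genes 17.4%). The means were -4.04 in the adult and -0.99 in the fetal regions for COPA, -4.56 and -2.76 for P4HA2, and -2.09 and -3.02 for MIA3. In a limma fit over the 570 genes measured on all arrays, with regions as replicates and Benjamini-Hochberg adjustment, 42 genes (7.37%) passed an adjusted p of 0.05 and 0 of the 3 members did; 0 of the 3 also had an unadjusted p under 0.05. COPA differed by -3.06 (SE 1.41, adjusted p = 0.200), P4HA2 by -1.80 (SE 0.86, adjusted p = 0.212) and MIA3 by 0.93 (SE 1.34, adjusted p = 0.668). At the reference scaling all 3 fetal regions lay above the middle and deep layers for COPA, with the superficial layer above all of them. The superficial layer differed from transient cartilage by only 0.36 for COPA, and by -0.19 with the 50th percentile. Regions of an age may come from 1 animal, in which case these p-values are too small. MIA3 passed (adjusted p = 0.026) with the 75th percentile of all probes, and without the superficial layer COPA passed (-4.87, adjusted p = 0.0057 in limma), while MIA3 turned to -0.46. A further 7 of the 41 members were above background on all fetal and no adult array. Of all 13608 named genes 1309 were so, and 34 the other way. The members' bounds were at least 62.0-fold for PLOD1, 20.3-fold for P4HA1, 16.4-fold for COPB1 and 12.4-fold for FKBP10. The others were FKBP14, SAR1A and SAR1B.

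**Figure D4:**
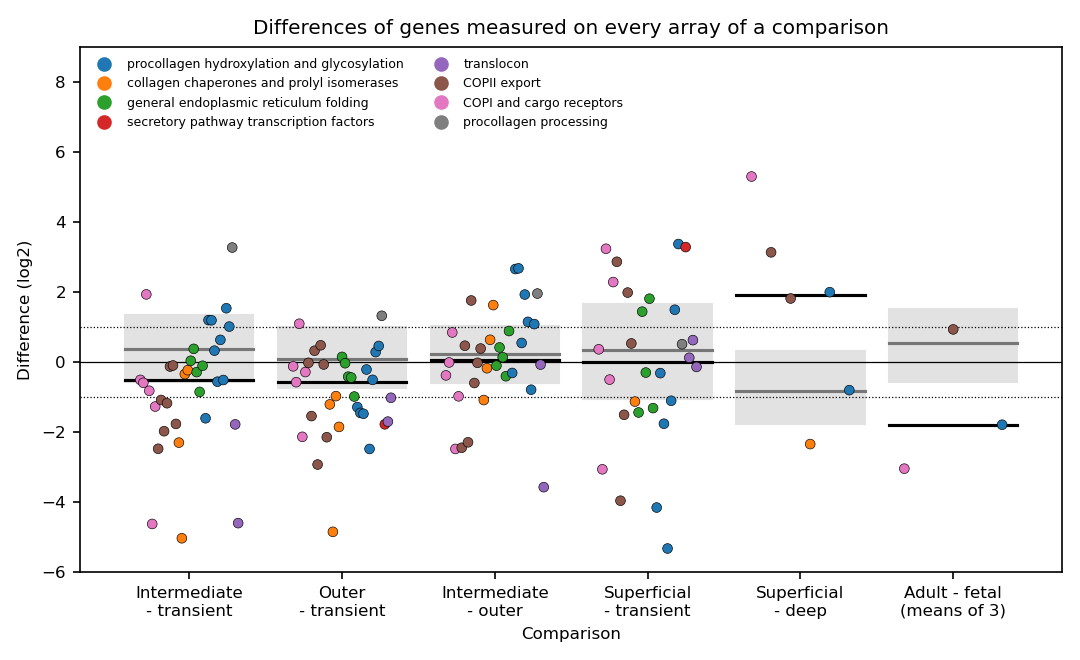
Differences (log2) of the members measured in each of the 6 comparisons, 1 point per gene, coloured by role; black bars are the members' medians, grey bars and boxes the median and middle 50% of all genes measured, and dotted lines mark 2-fold. The members' medians against transient cartilage were -0.52 (intermediate) and -0.58 (outer interzone), beside 0.36 and 0.08 for all genes; the comparisons on the right rest on 6 and 3 genes.

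Other genes of the pathway were read from 5 further lists. Of 13 measured genes of collagen maturation outside the 43, 8 were at least 2-fold lower and 0 higher in the intermediate interzone than in transient cartilage, and 7 lower and 0 higher in the outer interzone. PCOLCE2, a second C-proteinase enhancer, was 32.2-fold and 27.0-fold lower there, and KDELR3, a receptor that returns ER proteins, 12.0-fold and 7.31-fold. In the intermediate interzone PCOLCE2 was at -7.91, close to the lowest signal well above background on that array (-8.02). PCOLCE2 was 28.2-fold higher in the superficial layer than in transient cartilage, opposite to the order in the interzone. Of unfolded protein response targets, 1 of 10 was higher and 2 lower in the intermediate interzone, and 5 of 10 higher and 1 lower in the superficial layer. Of the 19 listed targets, a further 3 were above background in the superficial layer only and 2 in transient cartilage only. Among all named genes these counts were 847 and 3130. DNAJB9, a known XBP1 target, was 38.8-fold higher in the superficial layer than in transient cartilage and ATF4 37.5-fold lower. The part of XBP1 in these values was not tested. ATF4 was at -7.84 in the superficial layer, close to the lowest signal well above background on that array (-8.28). HSPA5, the chaperone BiP, was at 3.48, 3.22 and 3.39 in the fetal regions and at 4.46, 4.08 and 1.84 in the adult layers.

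Among other translocation and glycosylation genes, 7 of 20 were lower and 1 higher in the intermediate interzone than in transient cartilage. SSR1, a translocon-associated subunit, was 40.6-fold and DDOST, of the oligosaccharyltransferase, 22.8-fold lower. SSR1 was at -7.67 in the intermediate interzone, close to the lowest signal well above background on that array (-8.02). Among other coat and transport genes, 4 of 19 were higher and 4 lower, with GOSR2, a Golgi SNARE, 83.1-fold higher. GOSR2 was at -8.26 in transient cartilage, close to the lowest signal well above background on that array (-8.84). The cargo itself split. Of 7 measured fibrillar procollagens, 3 were higher in the intermediate interzone and 3 lower, COL2A1 by 21.8-fold. In the superficial layer 4 of 5 were lower than in transient cartilage and 0 higher, with COL1A2 3882-fold and COL1A1 1149-fold lower. Their superficial levels, -7.36 and -7.90, were near the lowest signal well above background on that array (-8.28). Against transient cartilage, the outer interzone had 1 higher and 2 lower of 11 response targets, 1 and 6 of 20 translocation and glycosylation genes, 4 and 6 of 21 coat and transport genes, and 2 and 4 of 8 procollagens. The superficial layer had 4 higher and 5 lower of 16 translocation and glycosylation genes, 5 and 3 of 14 coat and transport genes, and 2 and 5 of 8 collagen maturation genes. No list has a test here, and counts of all genes in each comparison are those given above.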

How the data were processed

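The authors deposited Agilent Feature Extraction output, whose processed signal is, per the file headers, a linear intensity after background subtraction. The deposited series table holds the same intensity values divided by each array's median. From these, control spots and 3 to 80 outlier spots per array were left out, spots of 1 probe were averaged, and log2 signals were scaled as described above. Probes were named from their descriptions and a horse RefSeq table (used for names only); 19947 probes had no name. A gene's reported probe had the highest mean level. A gene entered a comparison if that probe was well above background on every array of it; bounds set the bright mean against the lowest signal well above background, or the dim probe's own if higher. Spot errors are those of Feature Extraction. With 1 array per region, the number of arrays limits the precision. The limma fit (limma 3.58.1, R 4.3.3) was also run on simulated data with independent noise on each array. That run cannot show how the fit behaves where regions of 1 age share an animal. Members, lists and tests were chosen with earlier results of these data known. All members are named, with levels where detected, and up to 4 bounds per direction. Other percentiles, quantile and normexp (offset 50) processing, the series table, probe means, a wider filter, a 4-fold threshold and left-out arrays were tried. Planned searches of member proteins and promoters were not run, since no such sequences were used here.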

Additional observations from a re-analysis of the deposited data

How the results depend on the processing

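Of 73 member differences of at least 2-fold, recomputed with 5 other scalings or corrections and with the mean over probes (438 values), 329 moved by less than the pooled SD between probes of a gene, which stands in for the missing replicate spread, 94 moved by more and 15 turned sign. Of 168 recomputed counts of members and medians over all members (relative to all genes), 118 stayed within 1.5 times or that SD and 50 moved; medians of single roles are not among them, and some of those turned sign, as given for COPII (outer interzone) and hydroxylation genes (superficial layer) in the comparisons. The cause was not tested where a value changed, except that a 4-fold threshold or a wider filter changes by construction how many genes count.

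After normexp correction SAR1B turned to 0.27 (intermediate interzone against transient cartilage) and 0.28 (against outer interzone), PCOLCE to -0.033 (outer interzone against transient cartilage) and SEC13 to -0.29 (superficial against deep). With the 75th percentile of all probes, superficial against transient cartilage turned to 0.44 for P4HA2, 1.09 for P4HB, 1.07 for PPIB, 0.88 for PDIA6, 0.76 for CALR and 0.69 for SEC23A, and adult against fetal P4HA2 to 0.91. With quantile normalization PDIA6 turned to 0.041 (superficial against transient cartilage), P4HA2 to -0.89 and SEC13 to -1.01 (superficial against deep) and P4HA2 to 0.31 (adult against fetal).

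Counts below are of members higher and lower. For the intermediate interzone against transient cartilage they were 6 and 12, with 2 higher at the 50th percentile, and 1 and 5 at 4-fold. For the outer interzone they were 2 and 14, with 1 higher at the 75th percentile of all probes and at the 50th percentile, 0 higher with quantile or normexp, and 0 and 5 at 4-fold. Between interzone layers they were 8 and 5, with 8 lower with quantile, 2 lower with normexp and 2 higher at 4-fold. For superficial against transient cartilage they were 9 and 10, becoming 20 and 3 with the 75th percentile of all probes, 5 lower with the series table, 21 lower when 1 array above background was enough, and 5 and 4 at 4-fold. For superficial against deep they were 4 and 1, with 2 lower at the 75th percentile of all probes and at the 50th percentile, 2 and 2 with quantile, 2 higher with normexp and at 4-fold, and 26 and 3 with the wider filter. The members' median relative to all genes there was 2.73, 1.43 with quantile and 1.23 with normexp.

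For adult against fetal means the counts were 0 and 2, becoming 1 and 0 with the 75th percentile of all probes, 1 and 1 with quantile or normexp, 2 and 30 with the wider filter and 0 and 1 at 4-fold. The relative median was -2.33, -1.60 with normexp, -1.97 with the wider filter and -1.02 without the middle layer, where 2 members were higher and 3 lower. Leaving out each other array, chosen after the values were seen, gave relative medians of -3.06 to -1.59 and 0 to 1 higher members. In limma, 0 members passed; 1 did with the 75th percentile of all probes (MIA3) and 1 without the superficial layer (COPA), so 0 to 1 over the left-out arrays. Detection on the middle and deep arrays, at 4 and 8 of 41 members, limits all adult comparisons beyond the superficial layer. No paired analysis was possible because each region has 1 array and the labels give no shared replicate numbers. The planned search of member proteins and promoters was not run.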
